A study of Mus musculus with 20 samples.

Results

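The collagen genes, all rows whose mouse symbol is Col, a type number, the letter a and a chain number, were described across the libraries of a Kmt2b knockout in germline stem cells (GSCs). There were 43 such genes among 25965 rows of the chromatin table and the same 43 among 25067 rows of the RNA table. GSCs are self-renewing cultures derived from spermatogonial stem cells, and these were grown on fibroblast feeder cells. Kmt2b is a histone methyltransferase that places H3K4me3, the mark of active and of poised gene starts. The question here was which collagen genes moved with the feeder fibroblasts, and which did not, when Kmt2b was deleted.

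The knockout libraries came from Kmt2b FC/FC cells, made by adding 1 µM 4-OHT to cells with floxed Kmt2b alleles and Rosa26-CreERT2, and were harvested on day 6 after treatment. The control libraries came from Kmt2b F/F; Rosa26-CreERT2 cells given ethanol in parallel. Both groups therefore came from cells with the floxed alleles and the drug-activated Cre recombinase, which the Rosa26 locus drives in most cell types. Deletion and exposure to 4-OHT went together and cannot be told apart. H3K4me3, H3K27me3, input and RNA had 2 knockout and 2 control libraries each. H3K9me3 had 2 libraries of Kmt2b F/F cells with 2 inputs of their own, and the labels give no day or treatment for them. The design text says that duplicate cell lines were used. The labels do not say which library came from which line, so the p-values below measure only the spread between these libraries. They also do not say whether feeder cells were removed before harvest.

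Libraries held 38458010 to 45771857 mapped reads for RNA, 10538531 to 14810135 for H3K27me3, 10967790 to 14405261 for input and 41099186 to 63537169 for the H3K9me3 set. For H3K4me3 the range was 3830045 to 18035122, and knockout replicate 1 was the shallowest. Kmt2b, listed under its older symbol Wbp7, gave 132 and 185 RPM (reads-per-million of mapped reads) in the RNA libraries labelled knockout and 142 and 150 RPM in those labelled control. That count covers the whole gene and the labels do not name the deleted exons, so it does not check the deletion. Knockout and control are used below as the labels give them. The germ cell markers Ddx4 (356 and 434 RPM in the knockout, 418 and 400 RPM in the control) and Dazl (735 and 737 RPM in the knockout, 787 and 738 RPM in the control) were present in every RNA library. Summed RNA of 32 fibroblast markers, none of them a collagen, was 432 and 515 RPM in the knockout and 417 and 435 RPM in the control. Markers of other testis cells were mixed. The Leydig cell enzymes Cyp17a1 and Hsd3b1 were at 0 RPM in all 4 libraries, and Amh, made by Sertoli cells, was at or below 0.025 RPM. The Sertoli marker Wt1, however, had 13.9 and 18.4 RPM in the knockout and 14.4 and 12.9 RPM in the control. Star, of Leydig cells, had 1.9 and 2.1 RPM in the knockout and 2.9 and 2.8 RPM in the control. Pecam1, of endothelial cells, had 6.4 and 7.2 RPM in the knockout and 5.8 and 5.5 RPM in the control. These markers thus do not show that somatic testis cells were absent.

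Collagens are the main structural proteins of the extracellular matrix, built of chains with glycine repeats that wind into a helix. Fibrillar collagens such as types I, III and V give tissues tensile strength and are made in large amounts by fibroblasts. Type IV collagens form the sheet of basement membranes, to which spermatogonia attach in the testis, and type VI collagens form beaded filaments around cells. FACIT collagens coat fibrils, transmembrane collagens sit in the cell surface, and multiplexins carry sugar chains and sit in basement membranes. The genes of the type IV chains stand in head-to-head pairs, each pair sharing a promoter.

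The promoters of 4 collagen genes are shown because they stand for the patterns of chromatin described below. RefSeq (build GRCm38.p6) gave a promoter, from 250 bases before to 50 bases after the start, for 35 of the 43 genes. All are written 5′ to 3′ on the strand of the gene, with every CG dinucleotide in capitals. Col4a1 (chr8:11312777-11313076, minus strand) encodes a main chain of basement membranes, and its window also holds the start of Col4a2, 21 bases away. Col4a4 (chr1:82586800-82587099, minus strand) encodes a chain of specialised basement membranes such as that of the kidney glomerulus, and its window holds the start of Col4a3, 72 bases away. Col3a1 (chr1:45311288-45311587, plus strand) encodes the chain of fibrillar type III collagen, and Col6a3 (chr1:90843922-90844221, minus strand) a chain of type VI collagen.
Col4a1: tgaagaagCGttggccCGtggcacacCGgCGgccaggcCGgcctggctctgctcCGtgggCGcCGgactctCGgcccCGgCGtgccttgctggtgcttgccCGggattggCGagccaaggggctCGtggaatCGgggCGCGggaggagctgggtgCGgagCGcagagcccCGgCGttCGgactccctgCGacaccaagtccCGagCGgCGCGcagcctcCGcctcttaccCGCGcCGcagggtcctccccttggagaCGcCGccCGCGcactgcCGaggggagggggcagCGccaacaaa
Col4a4: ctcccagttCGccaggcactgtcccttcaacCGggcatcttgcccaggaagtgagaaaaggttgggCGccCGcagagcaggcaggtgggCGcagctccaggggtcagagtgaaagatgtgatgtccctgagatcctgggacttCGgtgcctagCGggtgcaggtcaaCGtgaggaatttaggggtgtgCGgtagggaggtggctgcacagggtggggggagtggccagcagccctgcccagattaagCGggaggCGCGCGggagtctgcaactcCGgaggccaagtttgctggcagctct
Col3a1: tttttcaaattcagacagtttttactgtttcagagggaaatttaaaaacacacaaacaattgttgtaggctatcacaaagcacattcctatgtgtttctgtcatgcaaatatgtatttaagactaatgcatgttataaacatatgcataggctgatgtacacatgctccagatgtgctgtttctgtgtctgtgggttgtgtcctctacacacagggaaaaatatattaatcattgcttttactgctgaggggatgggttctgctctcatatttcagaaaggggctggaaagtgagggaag
Col6a3: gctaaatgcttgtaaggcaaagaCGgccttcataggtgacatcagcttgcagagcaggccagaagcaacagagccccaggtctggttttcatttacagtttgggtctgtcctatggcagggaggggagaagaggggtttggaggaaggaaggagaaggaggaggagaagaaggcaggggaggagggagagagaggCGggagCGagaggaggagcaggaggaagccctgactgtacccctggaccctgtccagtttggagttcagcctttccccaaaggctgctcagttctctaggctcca
The Col4a1 window held 37 CG dinucleotides and that of Col4a4 14. The Col6a3 window held 3 and that of Col3a1 0. Over all 32851 RefSeq promoters the median was 7.

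RNA was measured as log2 RPM per gene. A gene was tested with limma where its mean over the 4 libraries was at least 0 on the log2 scale, and called at an adjusted p under 0.05 (Benjamini-Hochberg over all 14100 genes tested). RPM values are not divided by transcript length, so levels are compared between libraries and not between genes. Of the 43 collagen genes 36 were tested. The other 7 (Col4a3, Col4a4, Col4a6, Col6a5, Col9a1, Col9a2 and Col10a1) had 0 to 38 reads, or at most 0.949 RPM, in every library.

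In the knockout RNA 6 collagen genes rose and 0 fell, or 16.7% of those tested, against 3.01% of all genes called higher and 0.312% called lower. The 6 were Col18a1, Col13a1, Col9a3, Col1a1, Col6a3 and Col2a1. At an unadjusted p under 0.05 there were 11 of 36 higher and 0 lower, beside 16.5% and 3.6% of all genes. The median log2 change of the 36 genes was 0.29, beside 0.06 over all genes, and 32 of the 36 values were above 0. Both knockout libraries lay above both control libraries for 17 genes (47.2%, against 36.2% of all genes tested) and below them for 2 (5.56%, against 16% of all). Summed over the 43 genes, collagen RNA was 714 and 851 RPM in the knockout and 542 and 581 RPM in the control. That sum leans on Col1a1 and Col18a1, both among the 6 called. The mean of Col1a1 was 223.5 RPM in the knockout and 136.2 RPM in the control. That of Col18a1 was 95.9 RPM in the knockout and 49.7 RPM in the control. In such bulk libraries a change in the number of feeder or germ cells and a change in RNA per cell cannot be told apart. How many genes passed depended on single libraries. The count was 4 without either control library, 19 without knockout replicate 1, and 15, of which 4 were lower, without knockout replicate 2. With either knockout library alone many more of all genes passed too, 47.5% and 42.9%.

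Col1a1, which encodes the main chain of type I collagen, had 202 and 245 RPM in the knockout and 131 and 142 RPM in the control. The groups did not overlap, and the log2 change was 0.71 ± 0.12 (SE; adjusted p = 0.0307, limma). Col1a1 was no longer called without control replicate 1 (log2 change 0.65) or without control replicate 2 (log2 change 0.77). With no filter on low values its call was lost as well (adjusted p = 0.0572, limma). Col1a2, whose chain joins that of Col1a1 in the same molecule, had 30.1 and 40.2 RPM in the knockout and 28.2 and 33.1 RPM in the control. Its groups overlapped, and its log2 change of 0.19 ± 0.16 (SE) was not called (adjusted p = 0.57, limma).

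Col3a1, which is laid down with type I collagen in many tissues, had 38.6 and 58.2 RPM in the knockout and 45.2 and 50.9 RPM in the control. The knockout libraries stood on either side of both controls, and the log2 change was -0.02 ± 0.19 (SE). Col5a1, whose chain helps to start the assembly of type I fibrils, had 86.1 and 110 RPM in the knockout and 76.2 and 77.8 RPM in the control. It was higher in both knockout libraries but was not called (log2 change 0.34 ± 0.13 SE, adjusted p = 0.205, limma). The gene of its partner chain, Col5a2, had 10.1 and 11.1 RPM in the knockout and 9.86 and 9.04 RPM in the control. Col2a1, the fibrillar collagen of cartilage, had 15.6 and 17.0 RPM in the knockout and 11.2 and 10.5 RPM in the control. It rose by 0.59 ± 0.11 on the log2 scale (SE; adjusted p = 0.0447, limma), the weakest of the 6 calls. Under 7 of 12 alternative settings the call of Col2a1 was lost.

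Col18a1, a multiplexin of basement membranes that is the source of the fragment endostatin, gave 90.6 and 101 RPM in the knockout and 49.5 and 49.9 RPM in the control. The means were 95.9 ± 7.47 RPM in the knockout and 49.7 ± 0.29 RPM in the control (SD, n = 2 each). Its log2 change was 0.95 ± 0.10 (SE; adjusted p = 0.019, limma), and it was called under all 12 alternative settings. Col13a1, a transmembrane collagen known at the neuromuscular junction, had 10.1 and 9.24 RPM in the knockout and 4.84 and 3.97 RPM in the control, a log2 change of 1.14 ± 0.15 (SE; adjusted p = 0.0213, limma). This was the largest change among the 36 genes. Col9a3, a FACIT collagen of cartilage, had 10.2 and 10.5 RPM in the knockout and 5.88 and 5.79 RPM in the control, a log2 change of 0.83 ± 0.12 (SE; adjusted p = 0.0255, limma). The calls of Col13a1 and Col9a3 were each lost under 1 of 12 alternative settings, quantile normalization.

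Among the genes of type VI collagen, Col6a3 had 14.4 and 21.3 RPM in the knockout and 8.32 and 9.29 RPM in the control. It rose by 0.99 ± 0.19 on the log2 scale (SE; adjusted p = 0.043, limma). The call was lost under 3 of 12 alternative settings, which were no filter, a mean of at least 4 RPM and quantile normalization. The partners of Col6a3 in the same filament were not called. Col6a1 had 9.0 and 11.0 RPM in the knockout and 8.53 and 9.94 RPM in the control, and Col6a2 had 12.7 and 14.5 RPM in the knockout and 10.0 and 13.3 RPM in the control. Col6a6, a relative of Col6a3, had 49.9 and 26.9 RPM in the knockout and 23.6 and 29.4 RPM in the control. Knockout replicate 1 alone stood apart there, and Col6a6 was not called (log2 change 0.48 ± 0.27 SE, adjusted p = 0.376, limma).

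Of the 6 genes of basement membrane type IV collagen, 3 were tested in RNA and 0 were called. Col4a1 had 24.6 and 36.6 RPM in the knockout and 27.02 and 31.4 RPM in the control, and Col4a2 had 16.2 and 24.0 RPM in the knockout and 18.4 and 19.7 RPM in the control. For both genes knockout replicate 1 was the lowest library and knockout replicate 2 the highest. Col4a5 had 2.27 and 3.32 RPM in the knockout and 2.05 and 2.28 RPM in the control (log2 change 0.35 ± 0.23 SE, adjusted p = 0.459, limma). Among the 36 genes tested, knockout replicate 1 lay below both control libraries at 6, namely Col3a1, Col4a1, Col4a2, Col8a2, Col17a1 and Col28a1.

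**Figure D1:**
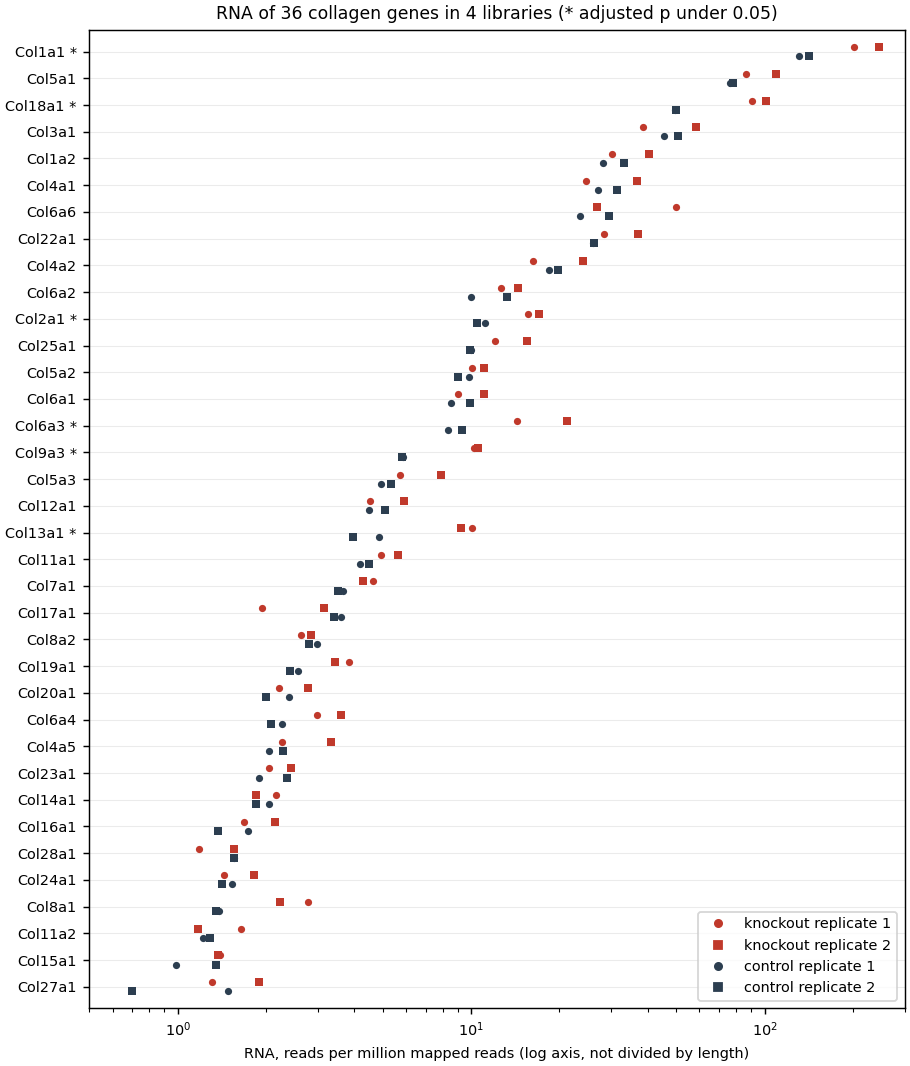
RNA of the 36 collagen genes tested, in RPM on a log axis, with 1 point for each library (knockout red, control dark; circles replicate 1, squares replicate 2) and a star at the 6 genes called. At Col1a1, Col18a1, Col2a1, Col6a3, Col9a3 and Col13a1 both knockout points lie right of both control points, while at Col3a1, Col4a1 and Col4a2 the knockout points lie on either side of the control points.

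Ratios of chains within a library do not depend on how RPM is scaled between libraries. The log2 ratio of Col1a1 to Col1a2 was 2.75 and 2.60 in the knockout and 2.22 and 2.09 in the control. That of Col1a1 to Col3a1 was 2.39 and 2.07 in the knockout and 1.53 and 1.48 in the control. Both ratios were higher in each knockout library than in each control library, by a mean of 0.52 and 0.73. The ratio of Col6a3 to Col6a1 was 0.68 and 0.95 in the knockout and -0.04 and -0.10 in the control, again without overlap. That of Col4a1 to Col4a2 was 0.60 and 0.61 in the knockout and 0.56 and 0.67 in the control, and that of Col5a1 to Col5a2 was 3.10 and 3.31 in the knockout and 2.95 and 3.11 in the control. In these last pairs the groups overlapped. With 2 libraries against 2 the smallest p of an exact two-sided permutation test is 0.333, so these ratios are given without a test. Col1a1 and Col6a3 had been called higher and Col1a2, Col3a1 and Col6a1 had not. The separation of their ratios thus in part repeats those calls. The share of all gene pairs whose ratios separate is not given here.

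To ask which collagen genes moved with the feeder fibroblasts, a feeder index was computed for each RNA library. It was the mean, over the 30 fibroblast markers that passed the RNA filter, of each marker's log2 RPM minus its mean over the 4 libraries. The index was 0.10 and 0.28 in the knockout and -0.21 and -0.16 in the control. The mean of the 36 collagen genes, built the same way, was 0.06 and 0.27 in the knockout and -0.17 and -0.16 in the control. It thus lay close to the feeder index in every library. An index of 13 germ cell markers was 0.08 and 0.22 in the knockout and -0.18 and -0.12 in the control, and differed from the feeder index by at most 0.05 in any library. These means of the marker lists therefore do not tell feeder from germ cells in these 4 libraries. Closeness to either mean cannot assign a collagen gene to a cell type. The germ cell list was itself split. Log2 changes ran from -0.10 to 0.09 at Ddx4, Dazl, Mael, Tex101, Sall4 and Pou5f1. They were 0.27 at Zbtb16 and 0.49 to 0.93 at Nanos3, Id4, Gfra1, Ret, Etv5 and Nanos2. No collagen gene was assigned to a cell type from these single markers. The feeder index also depended on its markers. Over Fn1 and Sparc alone, the 2 whose log2 RPM averaged 5 or more, it was -0.13 and 0.10 in the knockout and -0.03 and 0.07 in the control, and those groups overlapped. Of the feeder markers 2 of 30 rose and 0 fell, beside 3.01% and 0.312% of all genes. Their median log2 change was 0.39, beside 0.06 over all genes. Both knockout libraries lay above both control libraries for 19 of the 30 and below them for 0, beside 36.2% and 16% of all genes. At an unadjusted p under 0.05 (limma) 11 of the 30 were higher and 0 lower, beside 16.5% and 3.6% of all genes. Pdgfra, a growth factor receptor of fibroblasts, had 9.68 and 11.2 RPM in the knockout and 6.22 and 6.38 RPM in the control (log2 change 0.73, adjusted p = 0.0382, limma). Twist1, a transcription factor of mesenchymal cells, had 13.96 and 12.2 RPM in the knockout and 7.05 and 7.84 RPM in the control (log2 change 0.81, adjusted p = 0.0294, limma). Fn1, the gene of fibronectin, had 138 and 199 RPM in the knockout and 178 and 184 RPM in the control, and Fap was at or below 0.306 RPM. Of the germ cell markers, read against the same share, 3 of 13 rose, the receptor genes Gfra1 and Ret, by which these cells respond to GDNF, and Nanos2. The part of feeder or germ cell numbers in the collagen changes was not tested.

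A collagen gene was counted as following the feeder index where none of its 4 deviations lay over 0.5 from it. Of the 36 genes 31 followed (86.1%), but so did 92% of all 14100 genes tested, and the rule does not separate fibroblast genes from others. At a limit of 0.3 it kept 22, against 57% of all genes. With the germ cell index in its place 30 followed, against 93.3% of all genes. The nearest were Col11a1, with a largest gap of 0.07, Col5a1 with 0.11, Col25a1 with 0.13 and Col22a1 with 0.14. In 7 genes (19.4%, against 12.8% of all) the libraries stood in the same order as in the index. The 5 genes beyond the limit were Col6a3 (0.502), Col13a1 (0.551), Col6a6 (0.583), Col17a1 (0.696) and Col27a1 (0.696), and the last gene inside it was Col8a1 (0.492). Col6a3 and Col13a1 went further up in the knockout than the index did. Col17a1, a transmembrane collagen of epithelial anchoring, went the other way, with 1.94 and 3.15 RPM in the knockout and 3.59 and 3.40 RPM in the control (log2 change -0.50 ± 0.24 SE, adjusted p = 0.316, limma). Col27a1, a minor fibrillar collagen, had 1.31 and 1.90 RPM in the knockout and 1.48 and 0.699 RPM in the control, where control replicate 2 alone was low.

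With the index subtracted from each library, 7 collagen genes were called. Of all genes 47.9% were then called, 2.26% higher and 45.7% lower. Of the collagens 5 of 36 were higher in the knockout (Col13a1 by 0.77, Col6a3 by 0.62, Col18a1 by 0.57, Col9a3 by 0.45 and Col1a1 by 0.33 on the log2 scale). Relative to the index 2 of 36 were lower, Col3a1 with a log2 change of -0.39 (adjusted p = 0.0432, limma) and Col17a1 with -0.87 (adjusted p = 0.0143, limma). The direction of Col3a1 against Col1a1 thus does not rest on the scaling, whereas whether Col3a1 was called lower does. Among 9811 genes that are not collagens, those whose 4 deviations were most like those of Col1a1 were Mtus1, Emp2, Tmem63c, Srgap3 and Catsperg1, with largest gaps of 0.011, 0.021, 0.025, 0.033 and 0.036.

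**Figure D2:**
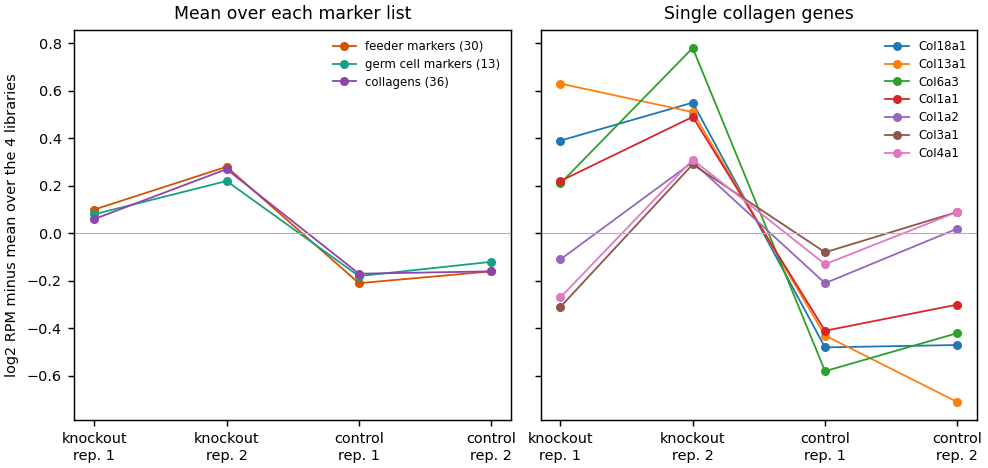
Deviation of log2 RPM from its mean over the 4 RNA libraries, averaged over marker lists (left) and for single collagen genes (right); lines join the libraries of a gene or list and stand for no order in time. The feeder, germ cell and collagen means nearly coincide, between 0.06 and 0.28 in the knockout libraries and between -0.21 and -0.12 in the control libraries, whereas Col3a1 and Col4a1 dip in knockout replicate 1 and Col13a1 and Col6a3 stand high in both knockout libraries.

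Of 20 genes that modify, fold and process collagen (prolyl and lysyl hydroxylases, chaperones, propeptide proteases, crosslinking enzymes) 0 were called in RNA, beside the 3.01% of all genes called higher and 0.312% called lower, and their median log2 change was 0.09. Their mean deviation, computed like the feeder index, was 0.01 and 0.11 in the knockout and -0.08 and -0.05 in the control, so the groups did not overlap. Both knockout libraries lay above both control libraries for 9 of the 20 and below them for 2, beside 36.2% and 16% of all genes. Serpinh1, a collagen chaperone, had 17.7 and 19.0 RPM in the knockout and 15.2 and 15.3 RPM in the control, and P4hb, a subunit of prolyl 4-hydroxylase, had 603 and 643 RPM in the knockout and 628 and 638 RPM in the control. At an unadjusted p under 0.05 there were 6 of the 20 higher and 2 lower, beside 16.5% and 3.6% of all genes. Of 15 basement membrane partners tested (laminins, nidogens and perlecan among them) 0 were called, with a median of 0.11 and 3 higher and 0 lower at an unadjusted p under 0.05. Of 5 collagen receptor genes tested 1 rose, beside 3.01% of all genes. That was Ddr1, a receptor tyrosine kinase that binds collagen, with 85.6 and 94.9 RPM in the knockout and 60.2 and 58.6 RPM in the control (log2 change 0.60 ± 0.10 SE, adjusted p = 0.0304, limma).

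The chromatin table gives, for a window at the start of each gene, the log2 RPM of each mark and its input. A window was taken as marked in control cells where the log2 ratio of (RPM + 0.5) over the same-numbered input was at least 1.5 for H3K4me3, or at least 1 for H3K27me3, in both control libraries. H3K27me3 is the mark of Polycomb repression, and windows with both marks are called bivalent. The libraries may hold both feeder and germ cells, so bivalent here means both marks in a library, not necessarily in the same cells. By this rule 14 of the 43 collagen windows were bivalent (32.6%, against 7.67% of all 25965 windows). The 14 were Col2a1, Col4a3, Col4a4, Col5a2, Col6a6, Col7a1, Col8a2, Col9a2, Col11a2, Col12a1, Col14a1, Col15a1, Col19a1 and Col27a1. There were 17 with H3K4me3 only (39.5%, against 49.9%), among them Col1a1, Col5a1, Col18a1, Col13a1, Col4a1 and Col4a2. There were 3 with H3K27me3 only (6.98%, against 2.11%), which were Col1a2, Col6a5 and Col9a1. The remaining 9 carried neither (20.9%, against 40.4%) and were Col3a1, Col6a1, Col6a3, Col6a4, Col10a1, Col17a1, Col20a1, Col22a1 and Col28a1. Near the H3K4me3 limit, Col1a2 had ratios of 1.43 and 2.36 and Col22a1 of 1.42 and 1.83, just outside, and Col7a1 of 1.54 and 1.73, just inside.

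**Figure D3:**
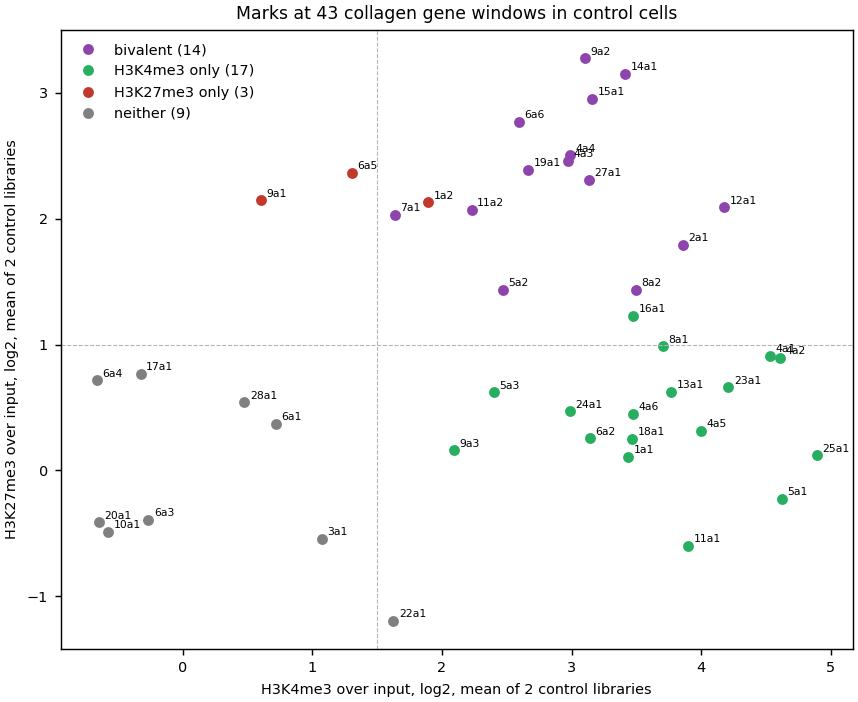
H3K4me3 over input against H3K27me3 over input at the 43 collagen windows in control cells (log2, mean of 2 libraries; the labels omit the prefix Col; dashed lines are the limits of 1.5 and 1). Colours give the class, which needs both libraries past the limit, so that a mean past a line can still belong to another class. The 9 windows with neither mark lie below the limit of H3K27me3. All of them except Col22a1 lie left of the limit of H3K4me3.

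The classes differed in promoter composition, among the windows with a RefSeq promoter. The number of CG dinucleotides was 8 to 32 with a median of 14 in 9 bivalent promoters and 3 to 37 with a median of 20 in 15 with H3K4me3 only. It was 0 to 6 with a median of 3 in 8 with neither mark. The motif TATAAA, searched on both strands, was in 3 of those 8 and in 5 of the 35 collagen promoters, Col3a1 among them, beside 13.6% of all promoters. CCAAT was in 12 and GGGCGG in 22 of the 35, beside 37.4% and 35.7% of all promoters (both strands, overlaps not removed). The Col3a1 and Col6a3 sequences above thus stand for windows with few CG and no mark, and those of Col4a1 and Col4a4 for windows with many CG and H3K4me3. RefSeq starts lay 804 bases from the table's start for Col1a2 and 1408 bases for Col27a1, so the marks and the promoter composition of these genes refer to different places.

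Several collagen genes had RNA without H3K4me3 at their start, by the limit given above. Among the 36 genes tested in RNA 9 windows were without it (25%, against 15.9% of all genes tested). These were Col1a2, Col3a1, Col6a1, Col6a3, Col6a4, Col17a1, Col20a1, Col22a1 and Col28a1, with a control mean of 1.56 to 48.1 RPM. Col3a1 had log2 ratios of H3K4me3 over input of 0.73 and 1.41 in the control, and Col6a3 of -0.28 and -0.25. Col1a1, in contrast, had 3.41 and 3.46, and Col5a1 4.68 and 4.56. By this limit the fibrillar and filament collagens that fibroblasts make were split, Col1a1, Col5a1 and Col6a2 with the mark and Col1a2, Col3a1, Col6a1 and Col6a3 without it. The place of Col1a2 is uncertain. Its ratios were 1.43 and 2.36, so only control replicate 1 missed the limit. Its RefSeq start also lies 804 bases from the start used for the window. Of the 30 feeder markers tested in RNA 10 (33.3%) were likewise without H3K4me3, among them Sparc, Dcn, Lum and Postn, and of the 13 germ cell markers 2 were. The RNA changes of the 9 collagen genes ran from -0.50 to 0.99 on the log2 scale and so were not of a kind.

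No collagen window carried H3K9me3, a mark of heterochromatin, in both control libraries (0 of 43, against 1.93% of all windows). The ratio over input passed the limit of 1 in a single library, at Col6a5, with 1.05 in replicate 1 and -0.78 in replicate 2. At the other windows it was -0.25 or lower in replicate 1 and -1.07 to -0.28 in replicate 2.

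H3K4me3 was then compared between knockout and control with the same limma test, over the 15624 windows whose mean reached 1 RPM. At 9 of the 36 collagen windows tested H3K4me3 fell, and at 0 it rose (25% lower, against 9.9% of all windows lower and 0.0512% higher). At an unadjusted p under 0.05 there were 21 of 36 lower and 0 higher, beside 24.7% and 0.314% of all windows. The median log2 change was -0.89 for the collagens and -0.26 over all windows, and 35 of the 36 values were below 0. Both knockout libraries lay below both control libraries at 30 windows (83.3%, against 42.8% of all windows). At Col3a1 both lay above them, with 2.61 and 3.20 RPM in the knockout and 1.83 and 1.94 RPM in the control (log2 change 0.61 ± 0.67 SE, adjusted p = 0.677, limma).

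Of the 9 windows 7 were bivalent in the control. Col11a2, a fibrillar collagen of cartilage, had 0 and 0.845 RPM in the knockout and 2.99 and 4.33 RPM in the control. Its fitted log2 change of -3.01 ± 0.78 (SE; adjusted p = 0.00833, limma) depends on the value given to a library with no read. Col14a1, a FACIT collagen, had 1.57 and 3.14 RPM in the knockout and 7.62 and 10.8 RPM in the control, and the log2 change was -2.03 ± 0.56 (SE; adjusted p = 0.013, limma). Col27a1 had 1.57 and 3.92 RPM in the knockout and 8.40 and 10.9 RPM in the control (log2 change -1.95 ± 0.55 SE, adjusted p = 0.0142, limma). Col12a1, another FACIT collagen, known in tendon and muscle, had 4.70 and 11.9 RPM in the knockout and 17.6 and 19.5 RPM in the control (log2 change -1.30 ± 0.38 SE, adjusted p = 0.0193, limma). In each of these genes the knockout libraries were below both controls, and knockout replicate 1 was the lower of the pair.

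Col8a2, a short-chain collagen of the cornea's Descemet membrane, had 3.65 and 7.30 RPM in the knockout and 12.3 and 12.9 RPM in the control (log2 change -1.28 ± 0.45 SE, adjusted p = 0.0483, limma). The paired genes Col4a3 and Col4a4 share a start region, so their values are nearly the same reads. Col4a4 had 1.83 and 3.38 RPM in the knockout and 8.21 and 10.9 RPM in the control, and Col4a3 had 2.35 and 3.50 RPM in the knockout and 8.49 and 11.0 RPM in the control. The log2 changes were -1.93 ± 0.55 at Col4a4 (SE; adjusted p = 0.0153, limma) and -1.75 ± 0.53 at Col4a3 (SE; adjusted p = 0.0233, limma). The remaining windows, with H3K4me3 only in the control, were those of Col16a1 and Col4a6. Col16a1, a FACIT collagen, had 1.83 and 7.66 RPM in the knockout and 9.56 and 14.2 RPM in the control (log2 change -1.64 ± 0.49 SE, adjusted p = 0.0209, limma). Col4a6, a basement membrane chain, had 1.57 and 2.47 RPM in the knockout and 6.18 and 7.54 RPM in the control (log2 change -1.79 ± 0.60 SE, adjusted p = 0.0373, limma).

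These calls rested in part on knockout replicate 1, the shallowest library, which had 0 to 18 reads at each of the 9 windows. Without it 6 windows were called, and the calls of Col12a1 (log2 change -0.63), Col16a1 (-0.61) and Col8a2 (-0.79) were lost. The kept changes were -2.09 at Col11a2, -1.53 at Col14a1, -1.49 at Col4a4, -1.46 at Col4a3, -1.46 at Col4a6 and -1.29 at Col27a1. Without control replicate 1 or control replicate 2 the count was 0, as 0.0256% and 0.0128% of all windows were then called. The log2 changes of the 9 windows were -3.28 to -1.32 without control replicate 1 and -2.75 to -1.23 without control replicate 2. Without knockout replicate 2 the count was 30, against 44.9% of all windows.

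**Figure D4:**
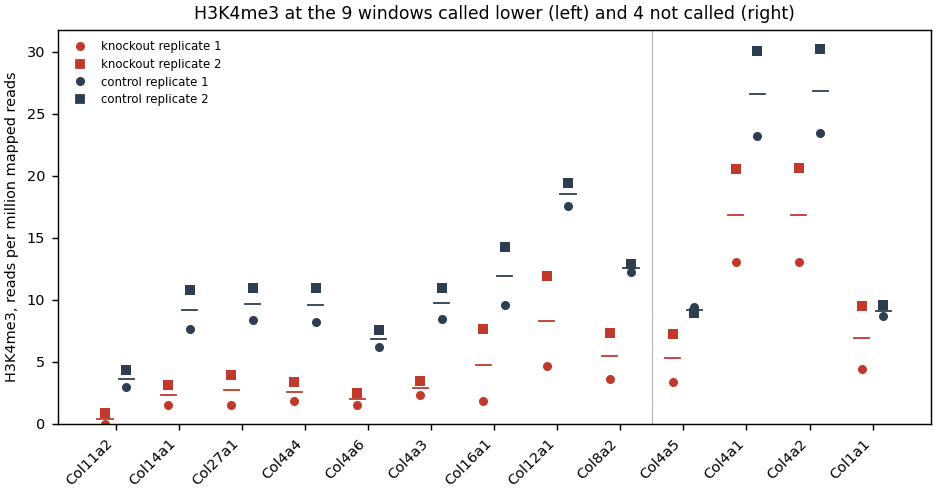
H3K4me3 in RPM at the 9 windows called lower in the knockout (left of the line) and at Col4a5, Col4a1, Col4a2 and Col1a1, which were not called (right); points are libraries (knockout red, control dark; circles replicate 1, squares replicate 2) and bars are the mean of 2. At all 9 windows both knockout points lie below both control points, and the circle of knockout replicate 1 is the lowest.

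The calls were then set beside the classes of the windows in the control. Of the 14 bivalent collagen windows 7 were called lower (50%, against 43.7% of all bivalent windows), with a median log2 change of -1.29 for the collagens and -1.30 for all bivalent windows. Of the 17 with H3K4me3 only 2 were called lower (11.8%, against 4.74%), with a median of -0.75 for the collagens and -0.16 for all windows of that class. Classed on the knockout libraries by the same limits, 6 of the 14 bivalent windows remained bivalent. The other 8 had H3K27me3 only, namely Col4a3, Col4a4, Col6a6, Col7a1, Col9a2, Col11a2, Col14a1 and Col27a1. At Col6a6 H3K4me3 itself was 2.87 and 2.41 RPM in the knockout and 2.99 and 4.27 RPM in the control (adjusted p = 0.776, limma). Its input was 0.253 and 0.983 RPM in the knockout and 0.0912 and 0.278 RPM in the control. The change of class at Col6a6 is thus not a called loss of H3K4me3. Of the 17 with H3K4me3 only, 9 remained so, 5 were bivalent (Col4a1, Col4a2, Col13a1, Col23a1 and Col24a1) and 3 had neither mark (Col4a6, Col5a3 and Col16a1). In all, the knockout libraries gave 11 bivalent (7.42% of all windows were bivalent there), 9 H3K4me3 only, 11 H3K27me3 only and 12 neither. A single knockout library below a limit was enough to change a class, and knockout replicate 1 was shallow in H3K4me3. The share of all windows that changed class is not given here, so these moves are not read as particular to collagens.

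The 3 head-to-head pairs of type IV genes differed. At Col4a1, the pair with most CG shown above, H3K4me3 was 13.1 and 20.6 RPM in the knockout and 23.2 and 30.1 RPM in the control (log2 change -0.69 ± 0.28 SE, adjusted p = 0.0895, limma). Col4a2, which shares those reads, had a log2 change of -0.70 ± 0.28 (SE; adjusted p = 0.0826, limma), and neither was called. Col4a3 and Col4a4 fell together, as given above. Of the pair whose starts lie 1309 bases apart, Col4a6 was called, while Col4a5 had 3.39 and 7.24 RPM in the knockout and 9.46 and 8.98 RPM in the control (log2 change -0.90, adjusted p = 0.238, limma). The difference between Col4a5 and Col4a6 was not tested. In RNA, Col4a3 had 0.284 and 0.250 RPM in the knockout and 0.156 and 0.270 RPM in the control. Col4a4 had 0.240 and 0.575 RPM in the knockout and 0.260 and 0.473 RPM in the control, and Col4a6 had 0.677 and 0.949 RPM in the knockout and 0.520 and 0.631 RPM in the control. All were below the RNA filter, so their loss of H3K4me3 stands beside RNA too low to test.

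No collagen gene was called in both RNA and H3K4me3. Of 31 genes tested in both, 5 rose in RNA, 6 fell in H3K4me3 and 20 were not called in either. Among all genes tested 3.01% rose in RNA, and among all windows tested 9.9% fell in H3K4me3. The 5 that rose had H3K4me3 changes of -0.88 to -0.48 on the log2 scale (adjusted p = 0.122 to 0.599, limma). Col18a1, for instance, had 6.79 and 11.8 RPM of H3K4me3 in the knockout and 10.0 and 15.6 RPM in the control, and Col13a1 had 9.14 and 11.3 RPM in the knockout and 15.5 and 18.9 RPM in the control. The sixth gene that rose, Col6a3, had too little H3K4me3 to be tested, with 0.522 and 1.45 RPM in the knockout and 0.290 and 0.444 RPM in the control. The 6 that fell in H3K4me3 had RNA changes of -0.08 to 0.63 (adjusted p = 0.422 to 0.943, limma). Higher RNA in the knockout was not accompanied by a called rise of H3K4me3 at any of these genes, nor a fall of H3K4me3 by a called fall of RNA. Such calls were rare everywhere, at 0.0512% of all windows for a rise of H3K4me3 and 0.312% of all genes for a fall of RNA. Their absence here is therefore not particular to collagens.

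**Figure D5:**
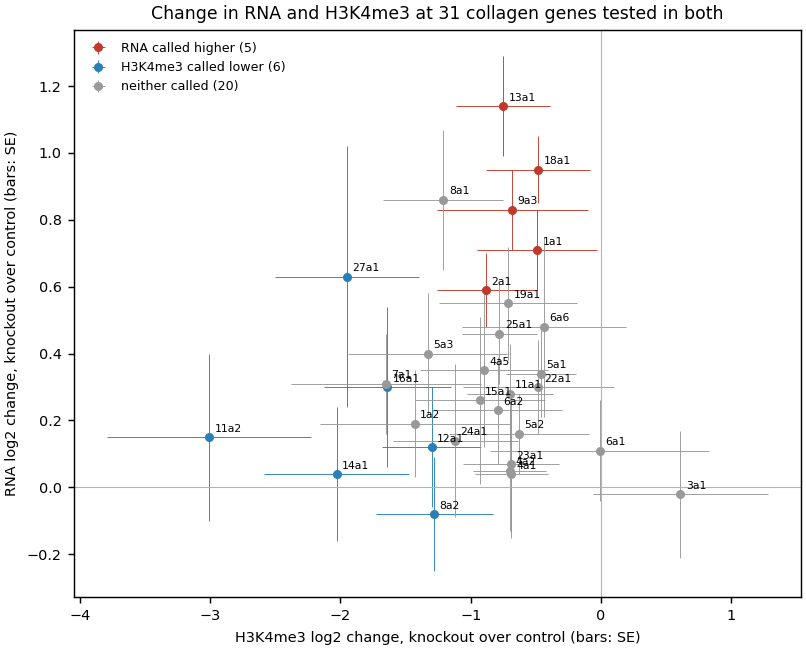
Log2 change in H3K4me3 (horizontal) and in RNA (vertical), knockout over control, at the 31 collagen genes tested in both, with standard errors as bars; the labels omit the prefix Col. The 5 genes called higher in RNA (red) lie at H3K4me3 changes between -0.88 and -0.48, and the 6 called lower in H3K4me3 (blue) lie at RNA changes between -0.08 and 0.63.

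H3K27me3 was tested at 27 collagen windows, and 0 were called in either direction, against 0.791% of all 4807 windows called higher and 0% lower. At an unadjusted p under 0.05 there were 3 of 27 higher and 0 lower, close to the 12% and 0.125% of all windows, and limma voom on the recovered reads called 0 as well. The median log2 change was 0.43, beside 0.45 over all windows. The 3, given as values only, were Col4a2, Col23a1 and Col4a1. Col4a2 had 5.20 and 3.51 RPM in the knockout and 2.05 and 1.19 RPM in the control (log2 change 1.45, adjusted p = 0.227, limma). Col23a1, a transmembrane collagen, had 2.63 and 2.37 RPM in the knockout and 1.03 and 0.824 RPM in the control (log2 change 1.44, adjusted p = 0.235, limma). The groups did not overlap at these windows, as at 6 of the 27 in all (22.2%, against 36.9% of all windows). Col14a1, where H3K4me3 fell, had 12.3 and 9.02 RPM of H3K27me3 in the knockout and 9.24 and 6.04 RPM in the control (log2 change 0.49, adjusted p = 0.796, limma). In the input libraries, tested the same way, 0 of 36 collagen windows were called, against 0% of all windows lower and 0% higher, and at an unadjusted p under 0.05 there were 1 higher and 1 lower, beside 2.21% and 2.53% of all windows.

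By structural class, RNA rose at 2 of 11 fibrillar genes tested, 1 of 6 beaded filament genes, 1 of 7 FACIT genes, 1 of 4 transmembrane genes and 1 of 2 multiplexin genes, beside 3.01% of all genes. It rose at 0 of 3 type IV genes, 0 of 2 short-chain genes and not at Col7a1, the anchoring fibril collagen. H3K4me3 fell at 3 of 6 type IV windows, 3 of 7 FACIT windows, 2 of 11 fibrillar windows and 1 of 2 short-chain windows tested, beside 9.9% of all windows. Of the type IV calls, those of Col4a3 and Col4a4 are nearly the same reads. It fell at 0 of 4 beaded filament windows, 0 of 3 transmembrane windows, 0 of 2 multiplexin windows and not at Col7a1. Differences between structural classes were not tested.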

How the data were processed

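Per the labels' protocols, chromatin immunoprecipitation (ChIP) and RNA libraries were made from GSCs, the RNA libraries with a directional kit. The submitters' processing notes name TopHat2 2.0.14, Bowtie 1.1.1, Trim Galore 0.4.0, CASAVA 1.8 and the build mm10, without a role or order. The strand setting of the counts and the size of the window around each start are not given in the sources used here, so reads of overlapping or antisense genes cannot be told apart. The authors deposited log2 RPM per gene or window. In every library 100% of the back-transformed values were whole multiples of 1 read within 0.1 read, with 0.9 of a read written where there was none, and depths were read from that step.

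The collagen genes, gene lists, limits and named genes were chosen with earlier results of these data known. Per-library values are given for the 6 genes with the most control RNA, for genes called, for those farthest from the feeder index and for the type IV pairs; a few others, such as Col6a1, Col6a2 and Col5a2, were added as partners after their values were seen. Each fit of log2 RPM used limma 3.58.1 in R 4.3.3, letting the variance follow the mean, 2 against 2 libraries, two-sided, over the whole table, without a replicate block. Classes used a pseudocount of 0.5 RPM, and H3K9me3 was set over the mean of its 2 inputs with a limit of 1. The main fits of RNA, H3K4me3 and H3K27me3 were first run on simulated data. The input fit and the alternative settings were not. Alternatives were other filters (none, or a mean of 4 RPM), pseudocounts, scalings, voom on recovered reads, the replicate block, a ratio over input and leaving out each library. Depth limits precision as counting error only.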

Additional observations from a re-analysis of the deposited data

How the results depend on the processing

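Collagen calls in RNA numbered 6, against 3.33% of all genes called in either direction. They numbered 3 with no filter on low values (0.985% of all), 2 after quantile normalization (0.496%), 6 with voom on recovered reads (414 of all genes higher and 45 lower) and 4 to 19 when each library was left out in turn (1.81% to 47.5%). Calls in H3K4me3 numbered 9, against 9.95% of all windows called in either direction. They numbered 5 after quantile normalization (4 lower, and Col3a1 higher, with only Col12a1 shared; 6.46% of all), 15 with voom (2587 of all windows lower and 112 higher), 3 over input (2.47%) and 0 to 30 when each library was left out (0.0128% to 44.9%). With no filter H3K4me3 gave 7 lower and 1 higher. Calls in H3K27me3 numbered 0, and 1 after median centring (Col6a5, lower; 5.89% of all windows). The replicate numbers are not tied to cell lines by the labels, and same-numbered libraries deviated together only weakly (correlation 0.09 in RNA, 0.15 in H3K4me3, 0.06 in H3K27me3). With the replicate block the calls were 9 in RNA, 21 in H3K4me3 and 5 in H3K27me3, against 10.5%, 26.3% and 25.2% of all features. Genes following the feeder index numbered 31, and 7 by library order. Bivalent windows numbered 14, and 10 with limits raised by 0.5, 21 with limits lowered by 0.5 and 12 with a pseudocount of 1 RPM. In the knockout libraries 11 were bivalent. Windows with H3K4me3 only numbered 17, and 9 in the knockout libraries. Those with H3K27me3 only numbered 3, and 1 with limits lowered by 0.5, and 11 in the knockout libraries. The shares of all windows with other limits or pseudocount are not given here. For single genes, the 6 RNA calls kept their call in 57 alternative values and lost it in 15, and the 9 H3K4me3 calls kept it in 67 and lost it in 40, always in the same direction. The cause was not tested in any of these cases. All changes in H3K4me3 stand relative to a shift of -0.26 (log2) over all windows, which median centring moved to 0.03, and with centring 8 of the 9 calls remained. Over all windows the calls were 1546 lower and 8 higher, and 1430 lower and 642 higher after centring; over all genes in RNA they were 44 lower and 425 higher, and 114 lower and 266 higher after centring. A fit without a library leaves 1 library in its group, which is assumed to vary like the other group. Depth limits H3K4me3 in knockout replicate 1, with 3830045 mapped reads of which 20.7% lay in the windows, and H3K27me3, with 1.9% to 3% of reads in the windows.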
